A study of Arabidopsis thaliana with 6 samples.

Results

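Among 22810 probe sets of the Affymetrix ATH1 array, 125 carried a transcript signal in rosettes of the apk1 apk2 double mutant that was at most 55% of the wild-type signal. A probe set was taken when it reached its array's own 40th percentile on all 3 wild-type arrays, when the mutant mean met that limit on the linear scale, and when every mutant value lay below every wild-type value. The 64 control probe sets were left out, and 12967 of the remaining probe sets had enough wild-type signal to qualify. The limits were met by 129 of these, or 0.995%, and 4 of those were left out by name, XTH18, XTH19 and 2 probe sets without a gene name. A gene could be named for 55 of the 125 members. Another 3 members match several genes and 67 have no gene in the probe table used here. Because the members were chosen on the difference between the genotypes, their values are a description of that choice and no test is given for them.

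Both genotypes are Arabidopsis thaliana. The wild type was the accession Col-0, and the mutant came from the insertion lines salk_053427 and salk_093072, which were crossed to lose the APS kinases APK1 and APK2 together. Each genotype has 3 samples, each the RNA of 10 pooled whole rosettes, cut 4 h into the light period from plants aged 35 days, which were kept at 22 °C and 60% humidity in days of 10 h light and 14 h dark after the seeds of both genotypes had spent 3 days in the cold before sowing. The array reads each transcript with 1 or more probe sets and gives a signal in arbitrary units. Pooling leaves the differences between single plants unseen, and the mutant is represented by 1 cross.

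APS kinase makes PAPS, the activated sulfate that sulfotransferases transfer to peptides, to flavonoids and to the desulfo forms of glucosinolates, the sulfur-rich defence compounds of this plant family. Loss of the kinases in leaves is known to lower glucosinolates and to give smaller rosettes. The members with a known role do not form a single pathway. They include proteins that loosen or modify the cell wall, hydrolases and oxidoreductases, carriers, and regulators of growth and energy use. No role is given for the 67 members without a gene or for 12 of those with a gene, and shared pathways were not tested.

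Leaf markers were bright. Rubisco activase RCA had a signal between 5464 and 7268 on the 6 arrays, and the root-hair expansins EXPA7 and EXPA18 were dimmer than the 40th percentile on each. No probe set was named for APK1 or APK2, so the labels could not be checked against the targeted transcripts. The 40th percentile lay between 16.9 and 19.4, and the trimmed mean, which drops 2% of probe sets at either end, was 100.01 on every array, as scaled by the authors. Correlations of log2 signals ran from 0.981 to 0.986 between wild-type arrays, from 0.974 to 0.983 between mutant arrays and from 0.950 to 0.969 between genotypes. In whole rosettes, fewer cells of a type and less RNA per cell cannot be told apart.

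**Figure D1:**
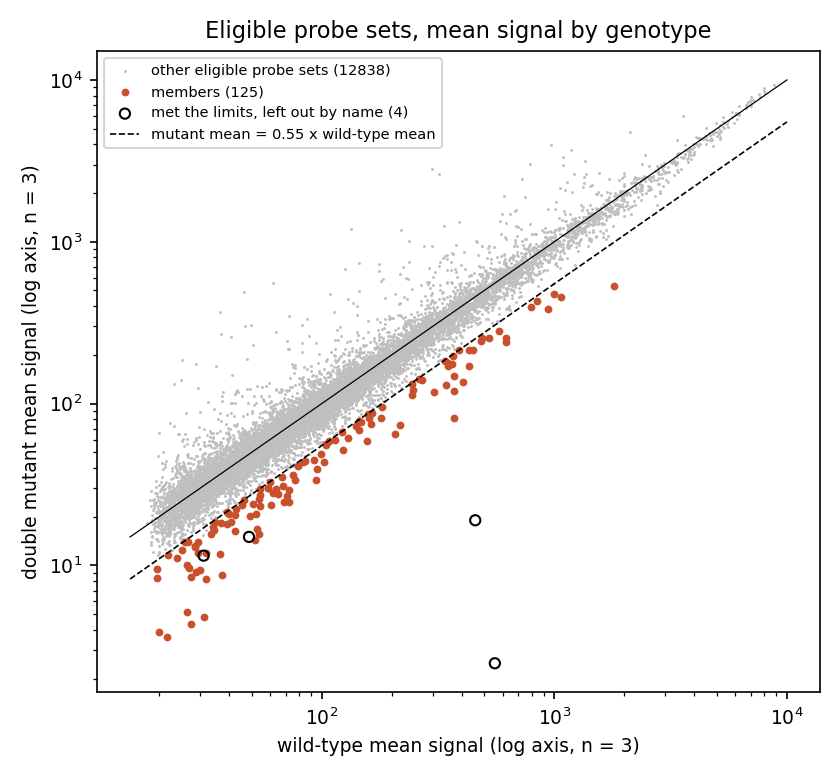
Mean signal of each eligible probe set in the double mutant (vertical, log axis) against the wild type (horizontal, log axis), n = 3 arrays per genotype. Grey points are the other eligible probe sets, coloured points are the 125 members, open circles are the 4 probe sets left out by name, the solid line marks equal signal and the dashed line 0.55 of the wild type. The members lie along the lower edge of the cloud, from wild-type means of 19.5 to 1805, while the eligible probe sets reach 8778.

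The residual signal, the mutant mean as a percent of the wild-type mean, ran from 15.4% to 54.8% with a median of 47.4%. Most members sat near the limit: 43 kept over 50% and 47 between 40% and 50%. Deeper losses were fewer, with 17 members between 33% and 40%, 11 between 25% and 33%, and 7 at 25% or less. On the inside of the limit lay AT1G66940 at 54.8%, the unnamed 251059_at at 54.8% and AT1G69570 at 54.5%. Just outside it lay 255818_at and 255817_at, both at 55.1% and unnamed, and AT5G59000, also at 55.1%. MGL, methionine gamma-lyase, had been left out by name and at 55.5% would not have met the limit.

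Signal remained at or above the 40th percentile on all 3 mutant arrays for 80 members, whose residuals ran from 22.1% to 54.8% with a median of 49.1%. For 11 members 2 mutant arrays reached that level, for 13 members 1 did, and for 21 members none did. The 40th percentile is not a measured background, and the 13 members with 1 mutant array at or above it and the 11 with 2 are given with their measured residuals, which use some signals under it. For the 21 members with none, with wild-type means between 19.5 and 37.2, the decrease is given as a lower limit, with log2 means against the higher of the 40th percentile and the measured signal. These members were at least 1.09-fold to at least 2.07-fold lower, with a median of 1.5, and 2 of the 21 were at least 2-fold lower. Their residuals thus rest on signals under the 40th percentile.

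**Figure D2:**
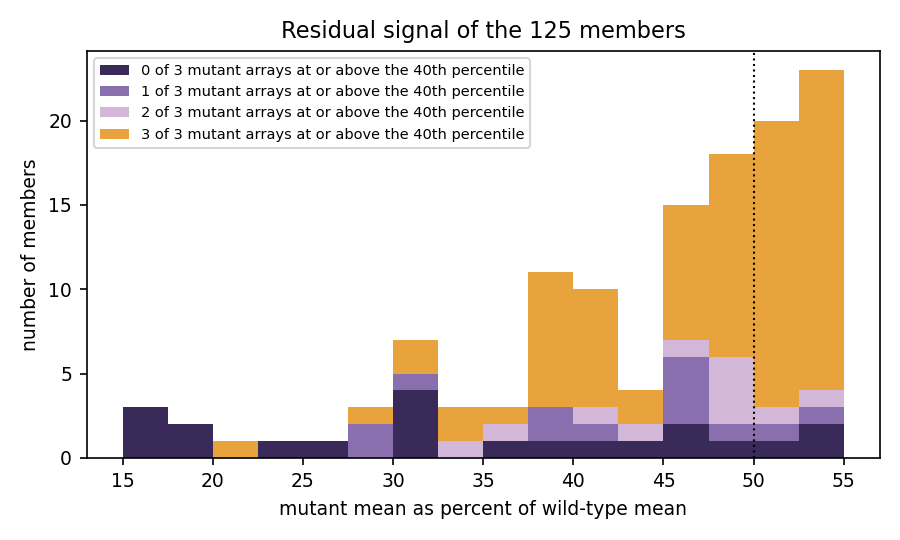
Number of members (vertical) by residual signal, the mutant mean as a percent of the wild-type mean (horizontal). Colours give how many of the 3 mutant arrays reached their 40th percentile, and the dotted line marks 50%. The 80 members seen on all 3 mutant arrays reach down to 22.1%, and those below that were seen on fewer arrays.

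Among the 6 members that act in or on the cell wall, the residual ran from 31.1% to 53.9%. EXLA1, an expansin-like protein of the family that loosens walls, had 393, 254 and 266 on the wild-type arrays and 105, 118 and 131 on the mutant arrays, a mean 2.58-fold lower. The lowest wild-type array was still well above the highest mutant array, and wild-type replicate 1 stood above the other wild-type arrays. AT4G25260, a pectin methylesterase inhibitor family protein, had 161, 196 and 184 against 89.7, 77.2 and 78.9. AT4G32460, a wall protein of the DUF642 family, had 321, 360 and 368 against 196, 174 and 166, and kept 51.1%. In both, each genotype formed a tight group with a clear gap between them.

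TBL45 belongs to the trichome birefringence-like family, in which several proteins add acetyl groups to wall polysaccharides. It had 357, 337 and 327 in the wild type and 201, 191 and 158 in the mutant, a residual of 53.9%. AT5G15780, of the Ole e 1 and extensin family, had 79.6, 64.0 and 51.1 against 31.1, 19.98 and 31.4. XTH33 is a xyloglucan endotransglucosylase/hydrolase, an enzyme type that cuts and rejoins the xyloglucan tethers of the wall. It had 36.1, 26.0 and 28.0 against 14.0, 0.742 and 13.3, and no mutant array reached the 40th percentile, so the transcript was at least 1.67-fold lower. Mutant replicate 2 was far below the other mutant arrays, and the residual of 31.1% was 45.4% without it and 17.4% with geometric means.

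Of 3 members coding for glycine-rich or lipid-transfer-type proteins with a secretion signal, AT2G05540 is glycine-rich. Its signals were 346, 323 and 380 in the wild type and 197, 157 and 160 in the mutant, a residual of 49.0%. AT4G22490, a lipid-transfer-type protein, had 168, 160 and 143 against 61.3, 65.7 and 49.8. The glycine-rich protein AT5G28630 had 57.8, 72.2 and 83.5 against 21.9, 31.6 and 27.4. AT4G22490 and AT5G28630 kept 37.6% and 37.9%, deeper losses than the 47.4% median of all members, while AT2G05540 lay near it.

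Among the 13 members given a role as other enzymes, the residual ran from 29.3% to 54.4%. Roles were given to members only, so the sizes of the role classes cannot be set against all eligible genes. The alpha/beta hydrolase AT5G22460 had the lowest residual among named members that were seen on every mutant array, at 31.6%, with 234, 203 and 182 against 63.1, 70.6 and 61.5. A second alpha/beta hydrolase, AT5G47330, had 43.0, 92.5 and 82.1 against 23.9, 18.3 and 32.0. Wild-type replicate 1 of AT5G47330 lay closer to the mutant arrays than to the other wild-type arrays. The pair therefore shared a low residual but not a tight wild-type level.

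A pair of members code for 2-oxoglutarate-dependent oxygenases. AT3G60290 had 51.3, 62.2 and 68.6 in the wild type and 27.7, 21.8 and 21.7 in the mutant. AT3G46490 had 69.5, 48.0 and 43.2 against 24.2, 10.1 and 12.8, and only 1 of its mutant arrays was above the 40th percentile. Oxidoreductases of the short-chain dehydrogenase family were AT3G50560, with 75.1, 79.7 and 74.7 against 38.3, 36.6 and 25.6, and AT2G29300. In AT2G29300 the genotypes were separated by a narrow gap, since mutant replicate 2 had 37.4 and the lowest wild-type array 41.9.

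The remaining enzymes were of many kinds. AT1G25230, a phosphoesterase of the purple acid phosphatase type, had 144, 150 and 138 against 62.8, 78.8 and 64.0. The class III peroxidases AT2G37130 and AT5G64110 kept 52.4% and 50.8%, but only 1 mutant array of AT5G64110 reached the 40th percentile. ASPGB1, an asparaginase that releases ammonium from asparagine, had 35.6, 33.6 and 31.4 against 17.6, 16.4 and 13.2, with 1 mutant array at or above that level. UGT85A4, a glycosyltransferase that adds sugar to small molecules, had 49.7, 32.7 and 45.1 against 20.3, 11.7 and 29.7, so that its highest mutant array came near its lowest wild-type array. The aspartyl protease AT4G16563 had no mutant array at the 40th percentile and was at least 1.5-fold lower.

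Carriers and proteins of membrane traffic or metal and calcium binding made up 6 members, with residuals from 39.8% to 49.8%. AT1G62480, related to vacuolar calcium-binding proteins, had 1014, 1127 and 1057 in the wild type and 520, 429 and 416 in the mutant, and kept 42.7%. AT5G14120, a major facilitator family carrier, had 754, 795 and 844 against 393, 386 and 411. RBB1 (AT5G40450), a protein that acts on vacuole membranes, had 305, 405 and 405 against 160, 142 and 142. In all of these the lowest wild-type array was at least 1.83 times the highest mutant array.

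PRA1.F1, of a family of small membrane proteins that work with Rab GTPases in vesicle traffic, had 88.6, 110 and 110 against 53.0, 40.7 and 36.5. AT1G12080, also related to vacuolar calcium-binding proteins, had 64.1, 46.1 and 52.1 against 35.0, 15.3 and 19.2, with mutant replicate 1 above the other mutant arrays. The heavy-metal-associated domain protein AT3G48970 had all mutant arrays under the 40th percentile and was at least 1.60-fold lower.

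Both SOUL haem-binding family members, AT1G78450 and AT1G78460, are neighbours on chromosome 1. AT1G78460 had 278, 239 and 271 against 135, 144 and 145, while AT1G78450 had 31.0, 26.9 and 28.3 against 13.5, 2.44 and 11.4. AT1G78450 was at least 1.61-fold lower, since no mutant array reached the 40th percentile.

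Regulators numbered 8, and their residuals ran from 45.5% to 54.8%, with none in the classes under 40%. AKINBETA1 is a beta subunit of SnRK1, the kinase that slows growth when energy is short. It had 139, 141 and 143 in the wild type, the narrowest wild-type spread among these regulators relative to its level, and 61.4, 78.6 and 76.7 in the mutant. AT1G44830, an AP2/ERF transcription factor, had 70.0, 60.5 and 61.1 against 31.6, 24.7 and 32.6. The MADS-box factor AGL42, known from roots and from flowering, had 41.6, 35.9 and 40.6 against 22.5, 20.1 and 21.6. In these 3 the genotypes were clearly apart.

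The Dof transcription factor AT1G69570 had 63.9, 51.8 and 65.1 against 40.3, 32.0 and 26.1. Of the RING finger proteins, AT4G17245 had 110, 107 and 127 against 52.3, 69.4 and 56.4, and AT1G49200 had 30.9, 21.4 and 33.3 against 17.2, 13.4 and 8.48. Only 1 mutant array of AT1G49200 reached the 40th percentile. AT1G66940, related to protein kinases, had 376, 373 and 425 against 188, 231 and 224. The BTB domain protein AT2G30600 had 276, 263 and 268 against 135, 136 and 150.

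AT2G30600 is read by a second probe set that was no member, 267524_at, with 160, 149 and 171 in the wild type and 113, 90.1 and 88.6 in the mutant. The second probe set kept 60.6% and passed the limma test, with a log2 change of −0.73 (95% interval −0.99 to −0.47, adjusted p = 0.00144, n = 3 per genotype). It was lower on every mutant array than on any wild-type array, by less than the member probe set.

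COR47, a dehydrin that accumulates in cold and drought, had 777, 935 and 824 in the wild type and 379, 427 and 485 in the mutant, a residual of 50.9%. AT3G15450, of a family with YGL and LRDR motifs, had 527, 632 and 706 against 229, 293 and 242. The small NTF2-like protein AT5G01740 had 46.8, 37.2 and 33.2 against 13.7, 27.7 and 12.7. Mutant replicate 2 stood close to the wild type and was the only mutant array to reach the 40th percentile.

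PsbN, encoded in the plastid, is needed to assemble photosystem II, and its gene lies on the strand opposite to the psbB operon. Its signals were 126, 80.7 and 108 in the wild type and 60.8, 51.1 and 54.9 in the mutant, a residual of 53.0%. The wild-type arrays were wide apart and the mutant arrays close together. Samples were labelled with a kit that copies RNA from its 3′ poly(A) end, which most plastid transcripts lack, and the part of this step in the plastid signals was not tested. The remaining named members were the pseudogene AT1G35612, at 52.7%, and 12 genes for which no role is given here. The lowest residual of all, 15.4%, was that of AT5G02580, one of these 12, but no mutant array reached the 40th percentile and the bound was at least 1.71-fold lower. AT2G30930, another of the 12, had 422, 340 and 339 against 197, 214 and 182.

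**Figure D3:**
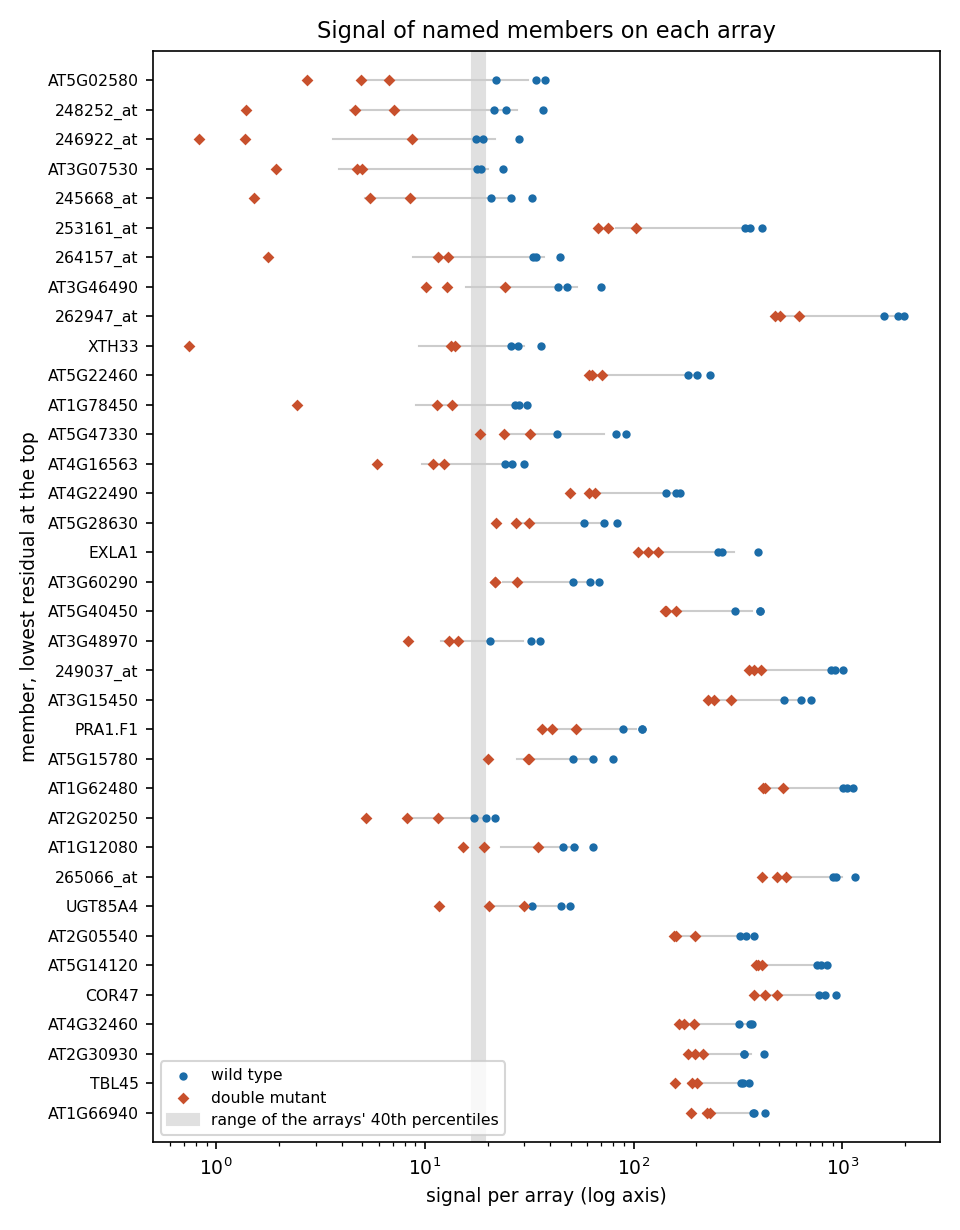
Signal on each array (horizontal, log axis, arbitrary units) of 36 members, the lowest residual at the top. Circles are the 3 wild-type arrays, diamonds the 3 double mutant arrays, the grey line joins the means and the shaded band is the range of the arrays' 40th percentiles, 16.9 to 19.4. Members at the top mostly have mutant signals inside or left of the band, while AT1G62480 and COR47 stay far to its right in both genotypes.

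Members with high signal or a low residual included probe sets without a gene name, and no role can be given for them. Probe set 262947_at had 1594, 1842 and 1978 in the wild type and 621, 501 and 475 in the mutant, a residual of 29.5%. Probe set 253161_at had 362, 343 and 411 against 103, 75.8 and 67.6, and its 22.1% was the lowest residual among members seen on every mutant array. Probe set 249037_at kept 40.7% and 265066_at kept 48.0%, both with wild-type means over 500. On all 3 mutant arrays these 4 lay above the 40th percentile. With all or some mutant signals under it, 246922_at had a residual of 16.7%, which was 5.09% without mutant replicate 1, and 253660_at had 38.5%, which was 23.5% without it.

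The members' wild-type mean signal had a median of 72.5, against 93.5 over all eligible probe sets, and 32.8% of members lay under 50 against 26.1% of the eligible ones. Over 500 lay 10 members, or 8% of them, against 10.7% of the eligible ones. Of the residual, the median was 46.1% for members under 50, 47.9% between 50 and 500 and 45.3% over 500. Replicates were also more scattered, with a median coefficient of variation on the wild-type arrays of 12.7% for members and 9.06% for all eligible probe sets. Of probe sets with a wild-type mean of at least 50 these medians were 10.8% and 7.91%.

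The gap between genotypes, the lowest wild-type value over the highest mutant value, ran from 1.07 to 3.54 with a median of 1.63. It was at least 2 for 20 members and at least 1.5 for 81, and under 1.2 for 8. Separation of this kind was common on these arrays: 2171 of the 12967 eligible probe sets, or 16.7%, had every mutant value below every wild-type value. The mirror image of the rule, with the mutant as the genotype that must have signal and a wild-type mean of at most 55% of it, was met by 328 of 12856 probe sets, or 2.55%. More probe sets therefore met the limits upward than downward.

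The rule requires every mutant value to lie below every wild-type value, so the members are low on each mutant array by choice. On these arrays, members had a median of 48.1%, 44.1% and 45.8% of their wild-type mean in replicates 1, 2 and 3, while all eligible probe sets had 97.9%, 98.5% and 96.5%. Wild-type arrays had 99.0%, 98.1% and 102% for members. Mutant replicate 1 held the highest mutant value for 59 members, against 33 for each of the other two. Members under the 40th percentile numbered 28, 41 and 31 on the 3 mutant arrays, and replicate 2 had both the most such members and the highest percentile. Without 1 array the rule found 141 to 169 probe sets, of which 109 to 118 were among the 125.

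**Figure D4:**
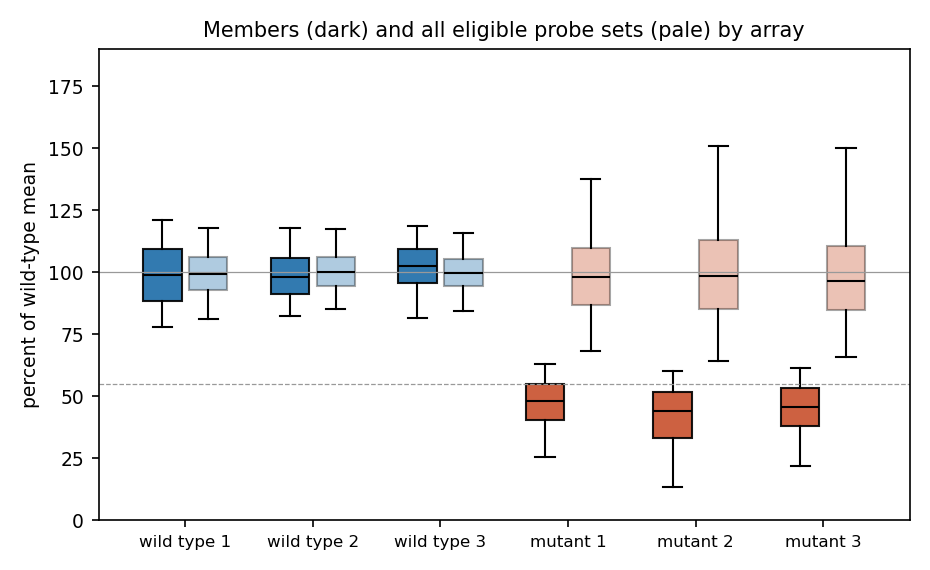
Signal of the members (left box of each pair, darker) and of all eligible probe sets (right box, paler) on each of the 6 arrays, as a percent of the probe set's own wild-type mean (vertical). Boxes show quartiles and the median, whiskers the 5th and 95th percentiles, and the dashed line the 55% limit. Member medians on the mutant arrays, low because members were chosen for this, are 48.1%, 44.1% and 45.8%. Those of all eligible probe sets stay near 100% on all arrays.

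Members with a gene were spread over the genome, with 17, 7, 11, 7 and 12 on chromosomes 1 to 5 and 1 in the plastid. Eligible probe sets with a gene numbered 1780, 979, 1435, 1005, 1655 and 66 in the same order. Of the genes next to a member, 24 eligible probe sets beside 21 members could be read. Apart from AT1G78450 and AT1G78460, which are both members, the other 22 neighbours had 67.4% to 175% of their wild-type signal, with a median of 97.2%. AT2G29290, a neighbour of the short-chain dehydrogenase AT2G29300 and of the same family, went from 391 ± 23.1 to 264 ± 19.0 (SD, n = 3), a log2 change of −0.57 in the limma fit (95% interval −0.76 to −0.37, adjusted p = 0.00110). The neighbour on the other side of AT2G29300, AT2G29310, had 252 ± 18.7 and 240 ± 16.5 (limma adjusted p = 0.722). AT5G64120, a class III peroxidase gene beside the member AT5G64110, rose from 67.1 ± 17.0 to 117 ± 27.3, a log2 change of 0.81 (95% interval 0.38 to 1.24, adjusted p = 0.0183). Without wild-type replicate 1, mutant replicate 2 or mutant replicate 3 the adjusted p of AT5G64120 was 0.0698, 0.0521 and 0.0947, and it was 0.0997 without a variance trend.

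Relatives of the members, which the rule did not take, were tested in a limma fit of all 13848 probe sets with enough signal. In this fit 769 probe sets, or 5.55%, were lower and 802, or 5.79%, higher at an adjusted p of 0.05. Families were looked up because a member belonged to them, so their counts are a description of these families only.

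Both other tested expansin-like genes were lower, by less than EXLA1. EXLA2 had 83.7, 63.1 and 61.3 in the wild type and 47.6, 41.9 and 31.8 in the mutant, a log2 change of −0.79 (95% interval −1.18 to −0.39, adjusted p = 0.0142). EXLB1 had 54.3, 50.5 and 42.5 against 26.7, 27.0 and 30.4, a log2 change of −0.80 (95% interval −1.19 to −0.42, adjusted p = 0.00984). The genotypes did not overlap in either gene. EXLA2 no longer passed without wild-type replicate 1 (adjusted p = 0.0754), mutant replicate 3 (0.0622) or the variance trend (0.0547), and that of EXLB1 ended without wild-type replicate 1 (0.0511).

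Of the alpha-expansins, proteins that loosen the wall as it grows, none of the 3 tested was lower. EXPA4 rose from 76.2 ± 10.4 to 155 ± 17.8 (SD, n = 3), a log2 change of 1.03 (95% interval 0.74 to 1.32, adjusted p = 1.99e-04). EXPA8 had 550 ± 49.4 and 600 ± 124 (adjusted p = 0.665), and EXPA15 had 46.6 ± 1.85 and 52.7 ± 1.98 (adjusted p = 0.505). Of the other tested xyloglucan enzymes apart from XTH18 and XTH19, XTH32 fell by 0.33 on the log2 scale (adjusted p = 0.0282), a call that ended without wild-type replicate 2 (0.142), mutant replicate 2 (0.0675), mutant replicate 3 (0.102) or the variance trend (0.134). XTH16 had 104 ± 14.6 and 87.0 ± 11.5 (adjusted p = 0.283).

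In the glycosyltransferase family of UGT85A4, UGT85A2 fell by 0.68 on the log2 scale (95% interval −0.999 to −0.363, adjusted p = 0.00869), a call that ended without wild-type replicate 2 (0.0515). UGT85A5 had 23.9 ± 2.35 and 19.7 ± 2.97 (SD, n = 3, adjusted p = 0.548), and UGT85A7 had 12.3 ± 7.38 and 25.6 ± 18.1 (adjusted p = 0.478, and 0.0333 without mutant replicate 2). Of 7 tested relatives of PRA1.F1, only PRA1.B6 was lower, with a log2 change of −0.54 (adjusted p = 0.0143). That call ended without wild-type replicate 1 (0.0656), wild-type replicate 2 (0.0555) or mutant replicate 3 (0.0603). Of 14 tested relatives of TBL45, 3 were lower and 1 was higher, and TBL38, at a log2 change of −0.72 (adjusted p = 0.00487), and TBL23, at −0.55 (adjusted p = 0.00562), kept their calls under all settings tried. ASPGA1, the other asparaginase, had 133 ± 15.3 and 124 ± 7.88 (SD, n = 3, adjusted p = 0.649).

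Among 14 tested photosystem II genes other than psbN, 4 were lower, psbB, psbT, psbD and psbZ, and 0 higher, and at an unadjusted p under 0.05 the limma counts were 9 and 0, where 12.9% of all tested probe sets were lower and 10.8% higher by that measure. The operon neighbours psbB and psbT fell 1.5-fold and 1.47-fold, with adjusted p-values of 0.0222 and 0.0244 in the limma fit. The third, psbH, had 1600 ± 126 and 1304 ± 169 (SD, n = 3, adjusted p = 0.0743), and passed with quantile normalization (0.0475), with the replicate block (0.0133) and without mutant replicate 1 (0.0220). Likewise psbJ, not called with all arrays (adjusted p = 0.198), passed with the replicate block (0.00986) and without mutant replicate 1 (0.0236). Without wild-type replicate 1, wild-type replicate 2 or mutant replicate 2 neither psbB nor psbT passed, and psbB did not pass without mutant replicate 3 either (adjusted p up to 0.137 for psbB and 0.139 for psbT over all settings). Neither psbD nor psbZ passed without any one of the 3 wild-type arrays or of mutant replicates 2 and 3 (adjusted p up to 0.155 for each over all settings).

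**Figure D5:**
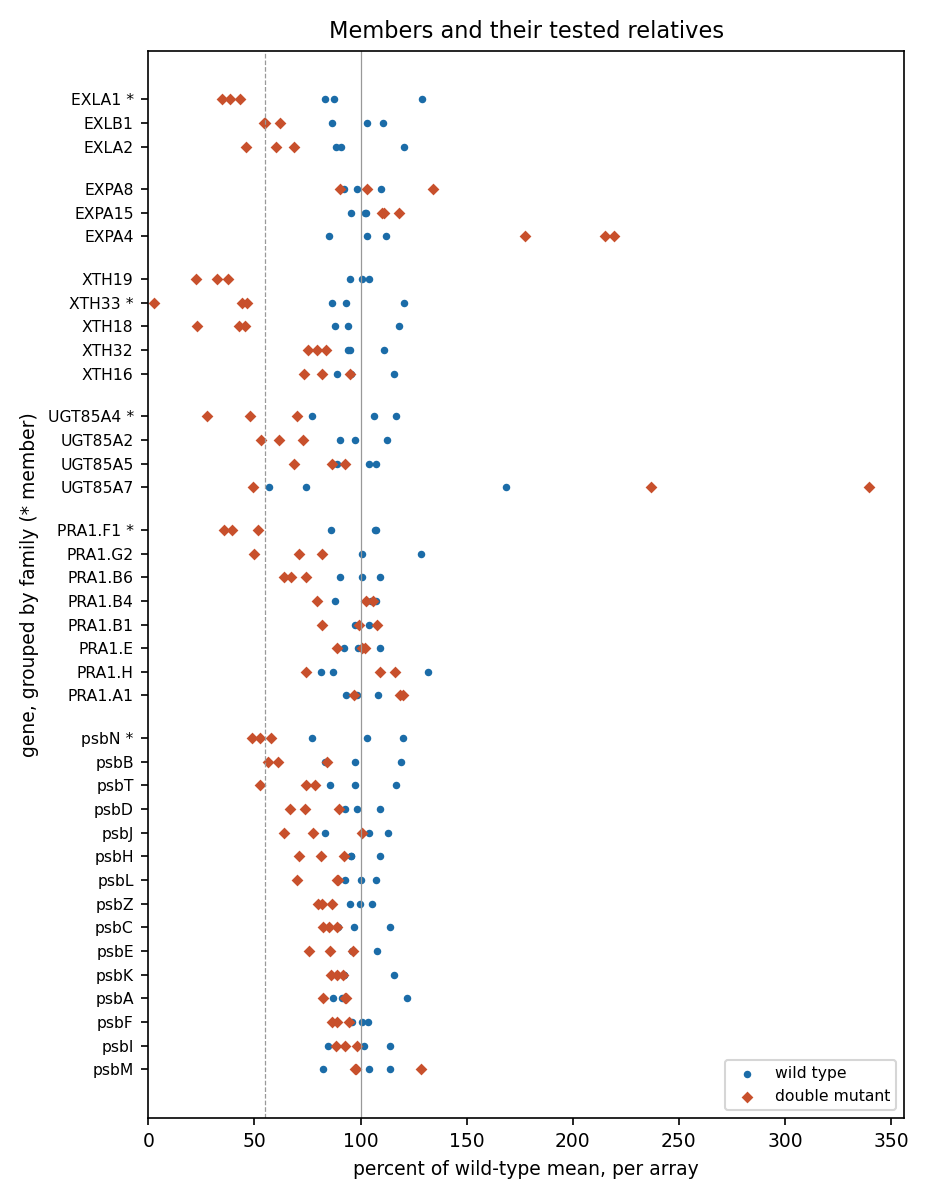
Signal on each array as a percent of the gene's own wild-type mean (horizontal) for members, marked with an asterisk, and tested relatives by family. Circles are the wild type, diamonds the double mutant, the solid line marks 100% and the dashed line 55%. Single mutant arrays of EXLA2 and EXLB1 fall on either side of the limit, with means of 58.2% and 57.1%, and EXPA4 lies above 100% on all 3 mutant arrays.

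Of the 218 genes on 16 lists that bear on rosette growth, hormones, nutrients and stress, 34 had a named probe set and 27 were tested. With limma, 6 were lower and 6 higher, where 5.55% of all tested probe sets were lower and 5.79% higher. The 6 lower include COR47, XTH18 and XTH19, whose low mutant signal met the rule. Their calls are not read as results, and the 6 are not comparable with the 5.55%. The members XTH33 and COR47 and the left-out XTH18 and XTH19 are among the 27. Of the 23 others, from which the rule had removed genes with low mutant signal, 3 were lower and 6 higher. These lists speak only for the few genes that could be read.

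Of 7 tested genes of cell wall expansion, the rule took or left out XTH33, XTH18 and XTH19, and of the other 4 limma called 0 lower and 1, EXPA4, higher, the same counts as at an unadjusted p under 0.05. All 7 had a median log2 change of −0.26, against −0.02 over all probe sets tested. The −0.26 includes XTH33, XTH18 and XTH19, whose values met the rule's limits, and is no test of the list. The other 4 had a median of 0.14, from which XTH33, XTH18 and XTH19 are missing because of their low mutant signal. The median of the 4 is thus not comparable with that of all probe sets. On the cold and drought list, COR15B, a cold-induced chloroplast protein, rose by a log2 change of 0.49 (95% interval 0.26 to 0.73, adjusted p = 0.0104), a call that ended without the variance trend (0.0725). Its relative COR15A had 1071 ± 354 and 880 ± 149 (SD, n = 3, adjusted p = 0.508). IAA29, a repressor of auxin responses, was lower with a log2 change of −0.54 (adjusted p = 0.0102), and the call ended without the variance trend (0.0597) or wild-type replicate 3 (0.0535). Of the tested list genes outside the rule, the Calvin cycle enzyme SBPASE, the ATP sulfurylase APS4 and IAA29 were the 3 that were lower. The 6 that were higher were EXPA4, COR15B, APS3, SIR, GH3.3 and PDF1.2. On the list of APS4, APS3 rose from 227 ± 3.72 to 453 ± 29.7 (limma adjusted p = 5.82e-06) and SIR from 748 ± 36.2 to 1036 ± 48.8 (0.00150). On that of IAA29, GH3.3 rose by a log2 change of 0.70 (0.0430, up to 0.183 over all settings). PDF1.2 rose by 2.93 (1.34e-05). SBPASE did not pass when any array but mutant replicate 1 was missing, with adjusted p-values up to 0.132, while APS4 passed under all settings tried, up to 0.0437.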

How the data were processed

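RNA of 3 wild-type and 3 double mutant rosette samples had been hybridised to ATH1 arrays. The authors deposited linear intensities, with 1 value for each probe set on each array, made with MAS5 and GCOS per the submitters' processing notes. Versions of these are not given in the sources used here. The authors scaled each array to 1 trimmed mean, so a change of total transcript amount would not be seen. Detection calls were not used, and the number of arrays, 3 per genotype, limits the precision.

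Members were found on the linear intensities as deposited. Genes that the rule did not use were tested with limma 3.58.1 (R 4.3.3), with a variance trend, genotype as the factor and Benjamini-Hochberg adjustment over 13848 probe sets at or above the 40th percentile on at least 3 of 6 arrays, two-sided, with a threshold of 0.05. No offset was added before log2. The fit was tested on simulated data. Each sample is a separate pool of rosettes, and p-values measure the spread between pools.

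Genes were named from the platform's probe table, where 13513 probe sets name 1 gene and 13436 of these matched the gene table of TAIR10.1. That table has no descriptions, so roles are background knowledge. The members and lists were chosen with earlier results of these data known. Members chosen to be named were the 20 with the lowest residual and the 10 brightest that name 1 gene. Also chosen were members on a list, sharing a symbol-based family or beside the limit. Of the unnamed ones, those with the 5 lowest residuals or the 3 highest levels were chosen. Not described with the results above are AT3G07530 (residual 19.4%), AT2G20250 (42.8%) and the unnamed 248252_at (15.8%), 245668_at (19.5%) and 264157_at (23.6%). In none of these did a mutant array reach the 40th percentile. All other members, relatives and neighbours named were chosen after their values were seen.

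Alternatives were the ratio limit, the percentile, the scaling, the type of mean, the variance trend, the filter, an offset of 16, the replicate number as a block and leaving out each array.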

Additional observations from a re-analysis of the deposited data

How the results depend on the processing

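All alternatives were planned. The number of members, 125, became 82 with a ratio limit of 0.5, 200 with 0.6, 189 with the 30th percentile and 454 with no minimum signal, changes that follow from looser or stricter limits. Their median residual of 47.4% became 41.3% with the limit of 0.5, 52.2% with 0.6 and 36.1% with no minimum. With 1 array left out the number of members was 141 to 169 and the median residual 47.4% to 48.6%. The 50th percentile gave 96 members, quantile normalization 132, scaling to 1 median 139 and geometric means 134. Of the single members' residuals, 1219 values under alternatives moved by less than the replicate spread and 31 by more, with 0 reversed. Members were chosen with every mutant value below every wild-type value. A reversal was therefore impossible with 1 array left out, with geometric means or with the replicate block. Leaving out 1 mutant array also shifts the mutant mean by less than the SD of the mutant arrays. For these settings the counts thus follow in part from the choice of members and do not test their stability. Of the log2 changes of tested genes, 957 values kept their direction and side of the threshold, 67 lost the call and 9 gained it.

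The 12 list genes called by limma (6 lower, 6 higher) became 9 to 14 when 1 array was left out, with 3 to 8 lower and 5 to 7 higher. COR47, XTH18 and XTH19, which had met the rule's limits, are among the 12. Without wild-type replicate 3, 3 were lower. The cause was not tested. All calls, 1571, were 880 without a variance trend (373 lower, 507 higher) and 993 to 1538 with 1 array left out; the lowest, 993, came without mutant replicate 3, and 1026 without wild-type replicate 3.

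The labels do not say whether same-numbered arrays of the genotypes share more than a number. Their deviations from the genotype means correlated weakly, at 0.0824, 0.0772 and 0.110, and each array correlated best with its own number. Pairs with different numbers ran from −0.0831 to −0.00344. With the replicate block, 119 members were found, 118 of them among the 125, with a median residual of 47.5%, and 14 list genes and 1789 probe sets were called. The promoter motif search was not run, because no sequences were used here. Dim signals, those near the 40th percentile, limit what the residual of 21 members can show.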
